A study of Schizosaccharomyces pombe with 32 samples.

Results

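The comparison described here asks which transcripts of fission yeast moved only after the first 15 min of oxidative stress. Arrays taken 50 and 60 min after hydrogen peroxide (4 late arrays) were set against arrays taken at 5, 10 and 15 min (6 early arrays), with the culture as a block, so 10 of the 32 arrays of the study entered it. The arrays were chosen by their times, but the time groups were set with earlier results of these data known. All cells were Schizosaccharomyces pombe JB50, a homothallic h90 strain that switches mating type and can mate with itself, growing in rich YES broth at 32 °C. The stressed cultures 1 and 2 were independent batch cultures that received 0.5 mM hydrogen peroxide. Each was sampled before it, at 0 min, and then through 240 min. The untreated cultures 1 and 2 received no peroxide and were sampled hourly from 0 min, so they have no counterpart of the early arrays, and their 0 and 60 min arrays (4) served as the comparison. The growth notes give more than one starting density for the peroxide cultures and do not say which density belongs to culture 1 or 2.

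Peroxide activates the MAP kinase Sty1 and the transcription factors Atf1 and Pap1, which switch on catalase, sulfiredoxin and other detoxifying genes within minutes. Slower responses of stressed yeast include lower transcription of the machinery that builds ribosomes, and they are known from many kinds of stress. Ribosome production takes a large part of a growing cell's effort: RNA polymerase I makes the ribosomal RNA precursor, RNA polymerase III makes 5S and transfer RNA, and dedicated assembly factors cut, modify and fold the RNA into subunits.

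Each array gave a deposited signal, in arbitrary linear units, for 4972 probe sets, of which 2903 carry 1 gene symbol. The median signal of the 10 arrays lay between 1.57 and 1.75. The 30 min array of stressed culture 2 stood apart: its highest correlation with any other array was 0.909, and no other array had a best match under 0.973. It is used below only as a description. Mating type could not be checked well, because the M genes mfm1, mfm3 and mam2 and the P genes map2 and map3 lay at low signals on all 10 arrays (0.0532 to 0.396), while the M gene mfm2 reached 2.12. The arrays measure the share of each transcript in an equal amount of labelled RNA, so a change in total RNA per cell, or in the number of cells that hold a transcript, cannot be told apart from a change in every cell.

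The second wave was broad. Between the early and the late arrays 2499 probe sets changed (50.3% of 4972), of which 1147 rose (23.1%) and 1352 fell (27.2%). A call is an adjusted p under 0.05 from limma, with Benjamini-Hochberg adjustment over all 4972 probe sets. The median change over all probe sets was -0.05 on the log2 scale. Among probe sets with a gene symbol, the largest rises belonged to inv1 (invertase, which splits sucrose), eno102 (an enolase), tms1 (a hexitol dehydrogenase) and lsd90, followed by zym1 (a metallothionein). The deepest falls among them belonged to adg1 and to eng1, the glucanase that dissolves the septum between daughter cells. Arrays of 1 culture are serial samples, so these p-values measure the spread of arrays within a culture and not between independent cultures. With 1 mean per culture and phase, 470 rose (9.45%) and 572 fell (11.5%). The count of calls fell to 1236 with culture 1 alone, to 446 when the spread was estimated over all 32 arrays, and to 47 when 60 min was set against 15 min alone.

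Fewer probe sets were called over the first 15 min. Against the 0 min arrays, 58 probe sets were higher (1.17%) and 8 lower (0.161%) on the early arrays, while 972 were higher (19.5%) and 1364 lower (27.4%) on the late arrays. These counts rest on 2 arrays at 0 min. Dropping that of culture 1 left 4 early and 1346 late calls, and dropping that of culture 2 left 8 and 1463. The early count was 19 without the culture block. At an unadjusted p under 0.05 the early arrays differed from 0 min at 699 probe sets. Less the untreated change from 0 to 60 min, 1886 probe sets (37.9%) had a late step that passed the test, 886 (17.8%) higher and 1000 (20.1%) lower.

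**Figure D1:**
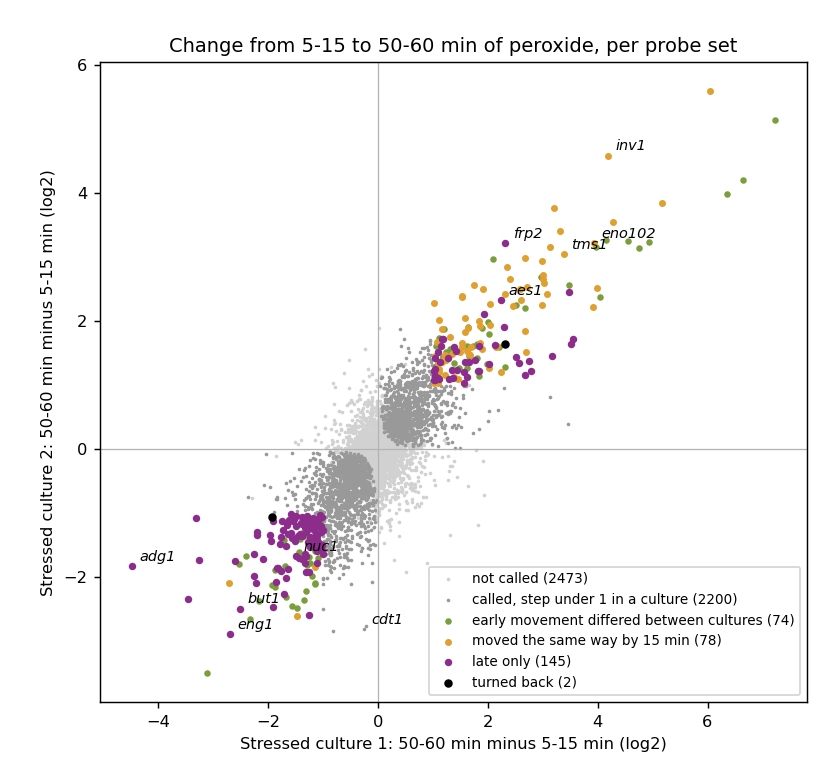
Change from the early (5 to 15 min) to the late (50 to 60 min) arrays, as log2 differences of means, in stressed culture 1 (horizontal axis) and stressed culture 2 (vertical axis), 1 point per probe set, coloured by class. The 145 late-only probe sets (purple, 46 risers and 99 fallers) lie beyond 1 from 0 in both cultures, and inv1 has a change of 4.19 in culture 1 and 4.59 in culture 2.

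Transcripts that moved late only were picked by size. A called probe set was taken when, in each culture, its early mean lay less than 0.5 (log2) from the 0 min array and its late mean lay at least 1 beyond the early mean. The choice yielded 46 risers (0.925% of all probe sets) and 99 fallers (1.99%), so their changes between early and late arrays are a description and carry no support of their own. In contrast, 74 probe sets that rose by at least 1 in both cultures had already moved the same way by at least 0.5 on the early arrays of both, and 40 had moved early in a way that differed between the cultures. Among fallers of that size the corresponding counts were 4 and 34. Late-only transcripts were thus 46 of 161 large risers and 99 of 138 large fallers. Only 1 large riser, the ferric reductase gene frp1, and 1 large faller, mug155, had moved the opposite way by 15 min.

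The limits cut through a continuum. Among risers with a symbol, cao2 stood just inside the early limit, with a larger early movement of 0.476 in the 2 cultures, and dsc5 just outside at 0.503. For the step, pyp3 lay inside with a smaller step of 1.03 and atg6 outside with 0.987. Among fallers, pcl1 (0.494) and pxl1 (0.515) lay on either side of the early limit, and azr1 (1.0001) and rpc10 (0.9989) on either side of the step. When every early array, and not the early mean, had to lie within 0.5 of the 0 min array, 13 risers and 30 fallers were left. Leaving out both 5 min arrays, an alternative added after seeing the data, left 25 and 42. Of the 13 risers, 3 carry a symbol, car1, atg9 and gmh3, and they are listed together after their values were seen. Car1 and atg9 also fall under the rule for named genes.

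Of the 46 late-only risers, 14 carry a gene symbol, and the 10 with the largest change are described first. The largest belonged to frp2, a ferric reductase that reduces iron at the cell surface before uptake. At 0 min cultures 1 and 2 read 0.13 and 0.126, and the lowest, median and highest early arrays 0.0793, 0.121 and 0.212. The 50 and 60 min arrays read 0.891 and 0.667 in culture 1, then 0.955 and 0.999 in culture 2. Every late array stood above every early one, at 6.83 times their level on average (2.77 ± 0.23, log2 difference ± SE, limma adjusted p = 4.47e-05). The untreated cultures had 0.0942 and 0.119 at 60 min. The related frp1 dipped first: 3.61 and 2.59 at 0 min, 0.693, 1.48 and 4.09 as lowest, median and highest early array, then 9.26 and 10.9 late in culture 1 and 3.59 and 3.26 in culture 2. The late values of each culture lay above its own 0 min array, but those of culture 2 lay below the 0 min array of culture 1.

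Aes1 had signals of 2.96 and 2.4 at 0 min and 1.51, 2.29 and 5.15 across the early arrays. It then reached 15.6 and 18.3 in culture 1 and 9.92 and 9.27 in culture 2, with no overlap (2.29 ± 0.20, limma adjusted p = 5.09e-05). Its early arrays were not level in culture 1, where the highest of them was the one at 15 min. The acetyltransferase gene aca1, a member of the core stress list, went from 2.51, 3.08 and 4.86 on the early arrays to 15.6, 16.2, 12.3 and 13 on the late ones, with culture 1 first and 50 before 60 min, an order kept for late signals from here on. Its 0 min signals were 2.92 and 2.45. The change was 2.11 ± 0.20 (limma adjusted p = 6.4e-05). For cao2, a copper amine oxidase-like gene, early arrays read 0.337, 0.417 and 0.573 and late arrays 2.05, 2.06, 1.12 and 1.3. Both cultures rose, culture 1 by 2.13 and culture 2 by 1.64.

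Other late-only risers were the single genes cdt2, pyp3, ubc8 and stn1. Cdt2, the adaptor through which the Cul4 ubiquitin ligase destroys the replication inhibitor Spd1 and the licensing factor Cdt1, had early signals of 0.505, 0.575 and 1.16 and late signals of 2.71, 2.13, 1.5 and 1.63 (1.47 ± 0.19, limma adjusted p = 0.000248). Pyp3, a phosphatase that removes the inhibitory phosphate from Cdc2, went from 1.09, 1.89 and 2.94 to 6.59, 6.62, 2.66 and 3.03. Here the highest early array, from culture 1, exceeded 1 late array of culture 2, although the arrays did not overlap within either culture. The ubiquitin-conjugating enzyme gene ubc8 rose from an early median of 2.53 to between 5.74 and 9.54, but reached 5.79 in untreated culture 1 at 60 min. Stn1, a telomere-capping protein, rose by 1.24 ± 0.13 in the stressed cultures and stood at 2.79 in untreated culture 1 and 1.54 in untreated culture 2 at 60 min, against late signals of 3.25, 3.63, 1.7 and 1.98. Thus ubc8 and stn1 are late-only risers whose level in an untreated culture overlapped the late level.

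The flattest early courses belonged to car1 and atg9. Car1 lay at 2.16 and 2.79 at 0 min, at 2.09, 2.58 and 2.74 on the early arrays and at 8.08, 9.46, 5.65 and 5.71 on the late arrays, while both untreated cultures were lower at 60 min (0.965 and 1.49). Its change was 1.52 ± 0.14 (limma adjusted p = 6.4e-05). Atg9, the membrane protein that supplies lipid to growing autophagosomes, went from 0.525, 0.639 and 0.871 to 1.61, 1.49, 1.3 and 1.47, with no overlap (1.15 ± 0.11, limma adjusted p = 6.4e-05). Dps1, which makes the side chain of ubiquinone, completes the 10 largest, to which atg9, named through the autophagy list, does not belong. Its change was 1.49 ± 0.21, and its early mean lay below the 0 min array in both cultures (-0.46 and -0.43). The remaining symbols, named after their values were seen, are gmh3 (1.10), scn3 (1.10) and ero11, an ER oxidoreductin that drives disulfide formation (1.06).

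**Figure D2:**
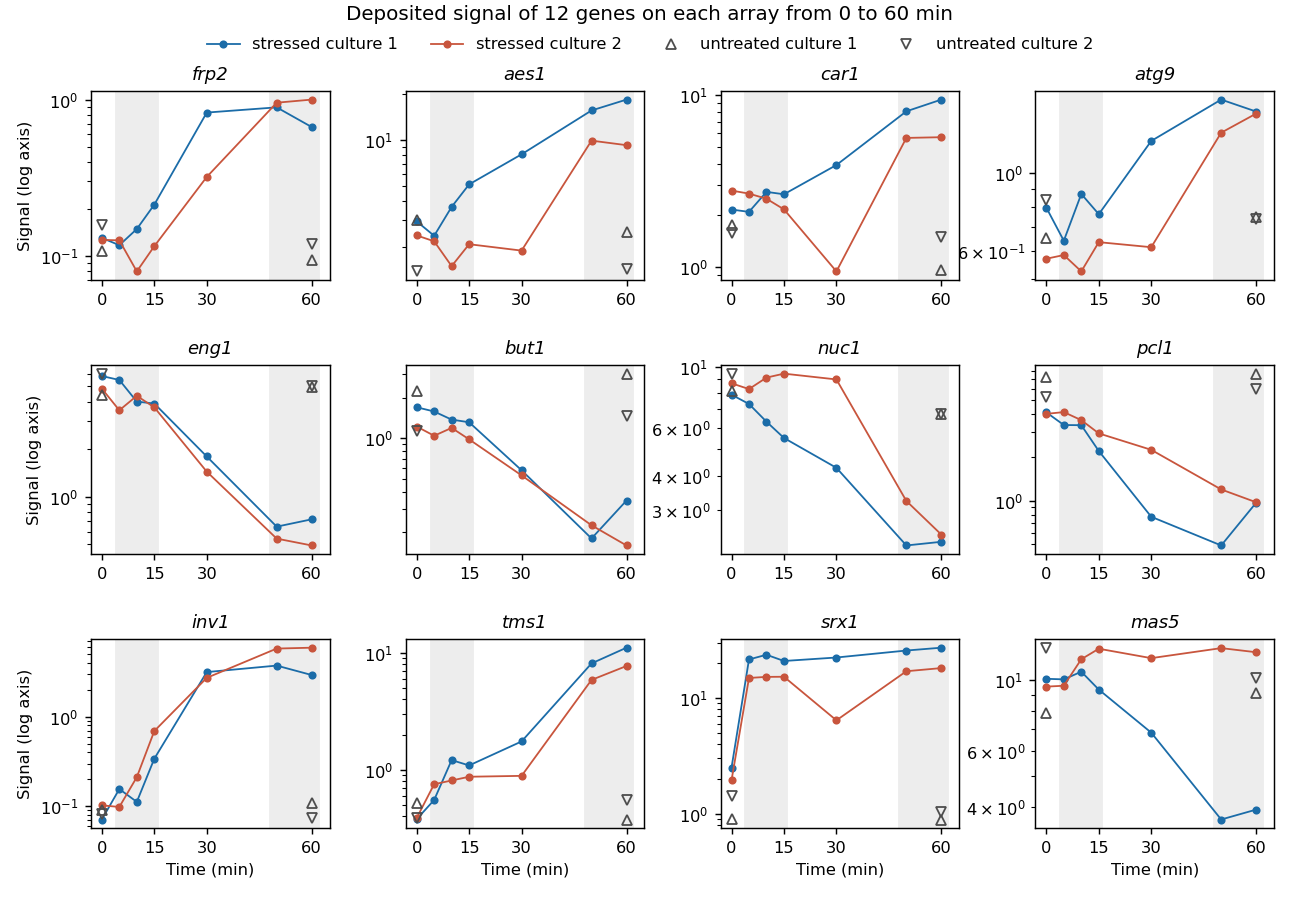
Deposited signal (log axis) against time for 12 genes, with stressed cultures 1 (blue) and 2 (red) from 0 to 60 min and the untreated cultures at 0 and 60 min (open triangles), 1 point per array, shaded at the early and late times. Late-only risers such as frp2 leave their early level by 50 min, srx1 reaches 14.9 or more by 5 min, and mas5 ends at 3.65 and 3.92 in culture 1 but 12.6 and 12.2 in culture 2.

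Late-only fallers were more numerous than the risers and more often named: 56 of the 99 carry a symbol, against 14 of the 46 risers. The share of the fallers is near that of all probe sets, 2903 of 4972. Among these, adg1, eng1 and but1 fell furthest. Eng1 had signals of 5.8 and 4.83 at 0 min and 3.52, 3.94 and 5.48 on the early arrays. On the late arrays it read 0.646, 0.719, 0.543 and 0.491, far under every early array, while the untreated cultures kept 4.94 and 5.04 at 60 min. The change was -2.79 ± 0.12 (limma adjusted p = 2.34e-06), a 6.92-fold lower level. But1 was level early, with 1.7 and 1.22 at 0 min and 0.98, 1.25 and 1.58 on the early arrays, and then read 0.18, 0.344, 0.226 and 0.16 (-2.50 ± 0.18, limma adjusted p = 2.6e-05). It did not overlap either, and the untreated cultures had 3.02 and 1.45 at 60 min. Adg1 fell further in culture 1, to 0.447 and 0.283, than in culture 2, at 1.85 and 1.26, from early signals of 4.52, 5.96 and 10.2 (-3.15 ± 0.46, limma adjusted p = 0.000539). Adg2 fell in the same uneven way, by 3.31 in culture 1 and by 1.07 in culture 2. The exo-glucanase gene exg1 fell by 1.77 and cdc15, a scaffold of the cytokinetic ring, by 1.49, both without overlap between early and late arrays.

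Over the list of mitosis and cell separation, 21 of 40 probe sets fell (0 rose) against 27.2% of all probe sets, with a median change of -0.35. With culture means 13 of 40 fell, against 11.5% of all. Less the untreated change from 0 to 60 min, 16 of the 40 were called lower, against 20.1% of all. Slp1, which activates the anaphase-promoting complex, belongs to it but had started early in culture 1 (-1.02 on the early arrays) and not in culture 2 (-0.37). Its late signals were 0.208, 0.248, 0.255 and 0.259, against 0.695, 1.08 and 1.3 on the early arrays (-2.02 ± 0.18, limma adjusted p = 5.36e-05). The protein kinase gene ppk1 fell by 2.12, late only. From 0 to 60 min ppk1 also fell in untreated cultures 1 and 2, from 1.09 to 0.759 and from 0.931 to 0.493. There slp1 went from 1.45 to 1.31 and from 2.2 to 1.39.

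Of the 32 lists, ribosome biogenesis had the highest share of fallers. Of 57 ribosome biogenesis probe sets 53 fell and 0 rose, 48 of them also with culture means, and the median change was -1.09. Over all probe sets 27.2% fell, and 11.5% with culture means. Late-only fallers made up 11 of the 57, against 1.99% of all (dbp10, gar1, rrs1, cgr1, ppp1, rlp24, mrt4, spb1, rrp6, utp4 and mak16, of which gar1 and cgr1 come from the rule for named genes). Gar1, a core protein of the H/ACA particles that guide pseudouridylation, had 16.2 and 15.7 at 0 min, 12.6, 17.7 and 21.8 on the early arrays and 4.12, 5.08, 7.31 and 6.33 on the late ones (-1.63 ± 0.17, limma adjusted p = 9.42e-05). All early arrays lay above all late ones, and the untreated cultures had 15.9 and 13.8 at 60 min. The helicase gene dbp2 fell by 2.26, the deepest of the list, after an early movement of -0.86 in culture 1 and 0.09 in culture 2.

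A like split between the cultures was seen in the list's median. Its median against the 0 min array was -0.59 at 10 min and -0.72 at 15 min in culture 1, and 0.03 and -0.08 in culture 2. Medians of -1.46 and -1.18 followed at 50 min, and of -1.21 and -1.37 at 60 min, with culture 1 lower at 50 min and culture 2 lower at 60 min. At 60 min the untreated cultures had medians of -0.21 and -0.16. The median step from early to late arrays was -0.90 in culture 1 and -1.21 in culture 2, and 0 of the 57 passed the test for a culture difference in that step, against 3.04% of all probe sets.

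**Figure D3:**
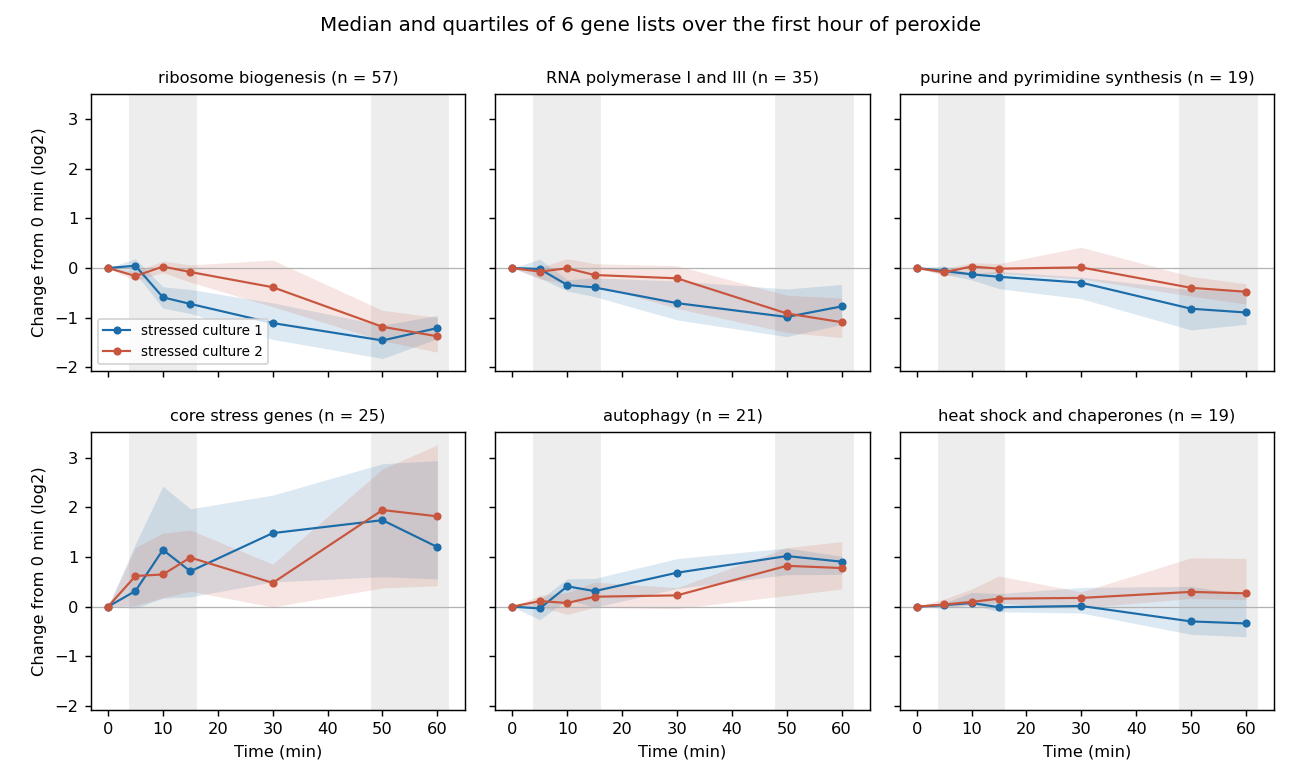
Median (line) and quartiles (band) of the log2 change from the culture's own 0 min array against time for 6 gene lists in stressed cultures 1 (blue) and 2 (red), with the early and late times shaded. At 15 min the ribosome biogenesis median is -0.72 for culture 1 and -0.08 for culture 2, and by 60 min it is -1.21 and -1.37, while the chaperone medians end on either side of 0.

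Genes of RNA polymerase I and III fell too: 26 of 35 probe sets fell and 0 rose (median -0.68), 17 fell with culture means, and 5 were late only. Over all probe sets these shares were 27.2%, 11.5% and 1.99%. Nuc1, the largest subunit of polymerase I, kept 5.49, 7.81 and 9.45 on the early arrays, near 7.91 and 8.71 at 0 min, and then dropped to 2.22, 2.29, 3.23 and 2.43 (-1.58 ± 0.11, limma adjusted p = 2.6e-05). Within culture 1 its early arrays already declined, from 5 to 15 min, while those of culture 2 did not. Rpa34 of polymerase I fell by 1.83 and rpa2, its other large subunit, by 1.2. Rpc37, a polymerase III subunit named after its values were seen, fell by 1.36. Each of them stood lower on all late arrays than on any early array.

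The ribosomal proteins themselves had a smaller median change. Among 118 cytosolic ribosomal protein probe sets 36 fell (30.5%, near the 27.2% of all probe sets) and 0 rose, with a median change of -0.14. Culture means left 2 of the 118 called lower, against 11.5% of all probe sets. Rpl3402 was the 1 late-only member, falling from 12.8, 15.6 and 17.5 to 5.64, 7.4, 6.89 and 6.08 (-1.24 ± 0.12, limma adjusted p = 6.82e-05). Translation factors fell at 14 of 22 probe sets, among them tif51 (-0.75) and tif471, eIF4G (-0.75). With culture means, however, 2 of the 22 were called lower, against 11.5% of all probe sets. All 8 probe sets of the cytosolic chaperonin CCT, which folds actin and tubulin, were measured. Of these 6 fell, with changes such as -0.65 for cct6 and a list median of -0.35, and 0 of 8 passed with culture means. Untreated growth from 0 to 60 min gave CCT medians of -0.38 and -0.09. Less that change, 2 of the 8 were called lower, against 20.1% of all probe sets.

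Nucleotide synthesis fell in the same window. In purine and pyrimidine synthesis 14 of 19 probe sets fell and 1 rose (median -0.54), with 7 falls left under culture means. Over all probe sets 27.2% fell, and 11.5% with culture means. The list had medians of -0.28 and -0.15 in untreated growth from 0 to 60 min. Less that change, 10 of the 19 were called lower, against 20.1% of all. Ura3, dihydroorotate dehydrogenase, stayed at 6.59, 7.76 and 10 on the early arrays, against 8.31 and 7.54 at 0 min, and fell to 2.12, 2.12, 4.16 and 4.12 (-1.43 ± 0.14, limma adjusted p = 7.5e-05). Ade9 fell by 1.41 and ade5 by 1.22, both late only. Glutamine synthetase, gln1, which was named after its values were seen, fell by 1.65. In heme synthesis hem3 went from 4.26, 6.22 and 7.35 to 1.02, 2.14, 1.87 and 1.79 (-1.84 ± 0.19, limma adjusted p = 9.53e-05). Pcl1, which moves iron into the vacuole, fell from 2.22, 3.36 and 4.13 to 0.489, 0.97, 1.2 and 0.976, while the untreated cultures stood at 7.65 and 5.94.

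**Figure D4:**
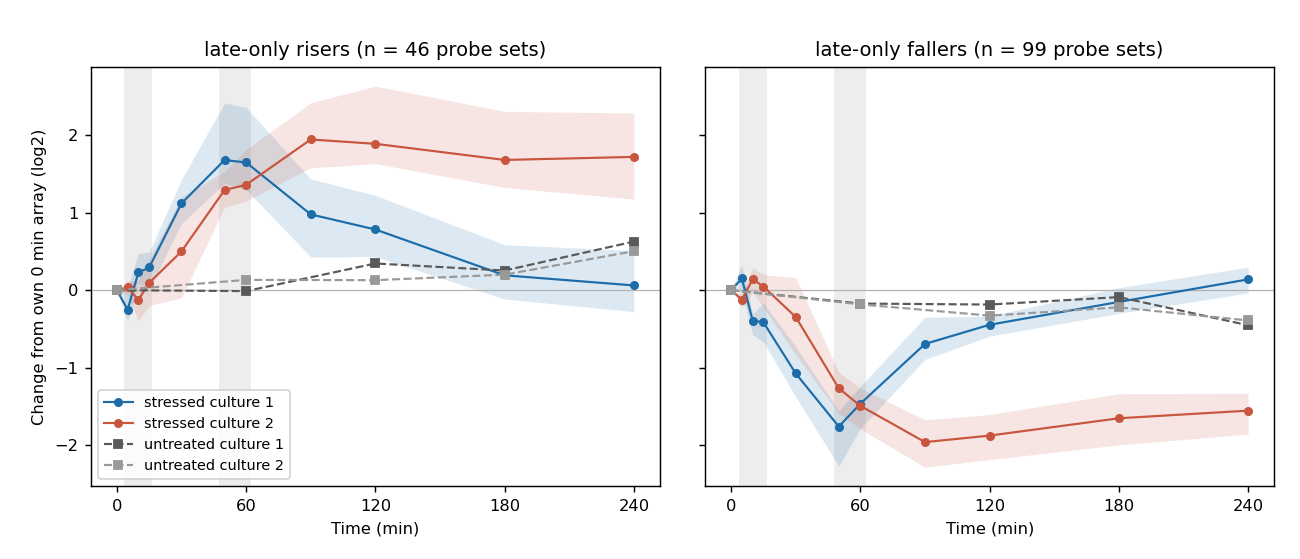
Median (line) and quartiles (band, stressed cultures only) of the log2 change from the own 0 min array for the 46 late-only risers (left) and 99 late-only fallers (right) through 240 min, in stressed cultures 1 (blue) and 2 (red) and in the untreated cultures (dashed grey). At 240 min the risers stand at 0.06 in culture 1 and 1.72 in culture 2, and the fallers at 0.14 and -1.55.

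The other times describe how the late-only transcripts went on. They are given from the early mean, which the choice of members used, so they are no independent check of it. At 30 min the risers stood, in the median, 0.99 above the early mean in culture 1 and 0.52 in culture 2, and 23 and 14 of the 46 were past 1, against 3.70% and 8.93% of all probe sets. The fallers stood at -0.78 and -0.27, with 39 and 15 of 99 past a fall of 1, against 2.19% and 12.5% of all probe sets. The values of culture 2 at 30 min come from the array that stood apart. At 90 min culture 2 had all 46 risers and all 99 fallers past 1, with medians of 1.97 and -1.96, against 10.9% and 12.9% of all probe sets. Of them 41 and 95 were past 1 at 240 min, against 10.6% and 10.4% of all. In culture 1 the medians had shrunk to 0.81 and -0.43 at 90 min, and 2 and 0 members were past 1 at 240 min, against 1.81% and 3.30% of all. Untreated growth from 0 to 60 min gave medians of -0.01 and 0.13 for the risers and -0.17 and -0.18 for the fallers. Past a rise of 1 went 3 of the 46 risers, the same ones in untreated cultures 1 and 2, against 2.72% and 1.37% of all probe sets. Past a fall of 1 went 0 and 1 of the 99 fallers, against 0.503% and 0.422% of all.

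Early and late arrays of the same culture did not overlap, in both cultures, for 46 of 46 risers and 98 of 99 fallers, which the class rule largely fixes. Over all probe sets that held for 19.5% upward and 21.4% downward. Within culture 1 the late-only fallers had in part begun to move by 10 min, with medians against 0 min of 0.15 at 5 min, -0.39 at 10 min and -0.41 at 15 min. In culture 2 the medians were -0.12, 0.14 and 0.05.

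The 74 large risers that had started early in both cultures and went on included inv1, eno102 and tms1. Inv1 had 0.0711 and 0.102 at 0 min and 0.0982, 0.183 and 0.692 on the early arrays, with the highest early arrays at 15 min. It then reached 3.72, 2.92, 5.77 and 5.9, which is 20.9 times the early level (4.39 ± 0.48, limma adjusted p = 0.00013), against 0.11 and 0.0731 in the untreated cultures at 60 min. Eno102 went from 0.558, 0.695 and 1.74 to 14.1, 18.9, 6.05 and 6.42 (3.58 ± 0.28, limma adjusted p = 3.55e-05), and tms1 from 0.553, 0.842 and 1.21 to 8.09, 11, 5.85 and 7.69 (3.22 ± 0.22, limma adjusted p = 2.39e-05). No late array of these genes came near an early one. Zym1 rose by 2.83 to signals between 8.81 and 34.8, mel1, an alpha-galactosidase, by 2.62 and lsd90 by 2.84. The DNA glycosylase gene mag2 had moved early in culture 1 (1.31) but under the limit in culture 2 (0.32), and rose by 2.83 afterwards.

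Fast defence genes offer the contrast. Srx1, sulfiredoxin, stood at 2.5 and 1.94 at 0 min, at 14.9, 18.1 and 23.6 on the early arrays and at 25.7, 27.2, 17 and 18.1 on the late arrays. Early and late signals overlapped across the cultures, though in each culture both late arrays stood above its early ones. Cultures 1 and 2 had early changes of 3.14 and 2.96 over 0 min, and the later step was 0.24 ± 0.07 (limma adjusted p = 0.021, and 0.4 with culture means). Catalase, ctt1, behaved alike, with early changes of 3.22 and 2.81 and a later step of 0.38 ± 0.11 (limma adjusted p = 0.0149, and 0.2 with culture means). Pyp2, the phosphatase that turns Sty1 off again, added a step of 0.55 in culture 1 and 1.58 in culture 2 to early changes of 3.15 and 2.84.

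Several stress lists held more risers than fallers. In the core stress list 18 of 25 probe sets rose and 0 fell (13 rose with culture means, median change 0.76), against 23.1% of all probe sets, with 1 of them late only. With culture means 9.45% of all probe sets rose. Trehalose and glycerol metabolism had 10 of 12 higher (5 with culture means), among them plr1 (0.76) and tpp1, trehalose phosphatase (0.84). Of the 26 antioxidant probe sets 13 rose and 1 fell, with 6 rises left under culture means, including gst3, a glutathione transferase (1.52), and gpx1, glutathione peroxidase (0.75). From 0 to 60 min gst3 also rose without peroxide, from 2.63 to 4.6 in untreated culture 1 and from 2.18 to 4.76 in untreated culture 2. Autophagy had the highest share of risers of the 32 lists: 18 of 21 rose and 0 fell, with 10 left under culture means and a median change of 0.68. Besides atg9, atg17, a scaffold of the kinase complex that starts autophagy, rose from 1.13, 1.59 and 1.86 to 4.41, 4.15, 2.36 and 2.44 (1.12 ± 0.13, limma adjusted p = 0.000173), without overlap. Atg1, the kinase itself, rose by 0.86 and atg3 by 0.88. From 0 to 60 min atg3 also rose in untreated cultures 1 and 2, from 0.954 to 1.43 and from 0.584 to 0.831. There atg1 went from 0.832 to 0.88 and from 0.945 to 0.693. In untreated growth the autophagy median changed by 0.15 and 0.23 over the hour. Less that change, 11 of the 21 were called higher, against 17.8% of all probe sets.

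Proteasome genes rose at 10 of 28 probe sets and fell at 0 (median 0.24), against 23.1% and 27.2% of all probe sets. Culture means left 1 of the 28, rpt5 at 0.66, against 9.45% of all. Ubiquitin conjugation split, with 18 of 42 higher and 4 lower, such as ubp15 (0.84) and ubp1 (-0.82), both deubiquitinating enzymes. In the Sty1 pathway 10 of 25 rose and 2 fell: srk1, a kinase that Sty1 activates, rose by 1.57, on top of early changes of 2.12 and 1.32. In iron and copper uptake 6 of 16 rose, among them frp2 and the siderophore synthesis genes sib2 (1.91 ± 0.20, limma adjusted p = 9.53e-05) and sib1 (0.94), 3 fell, among them pcl1, and 7 were not called.

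**Figure D5:**
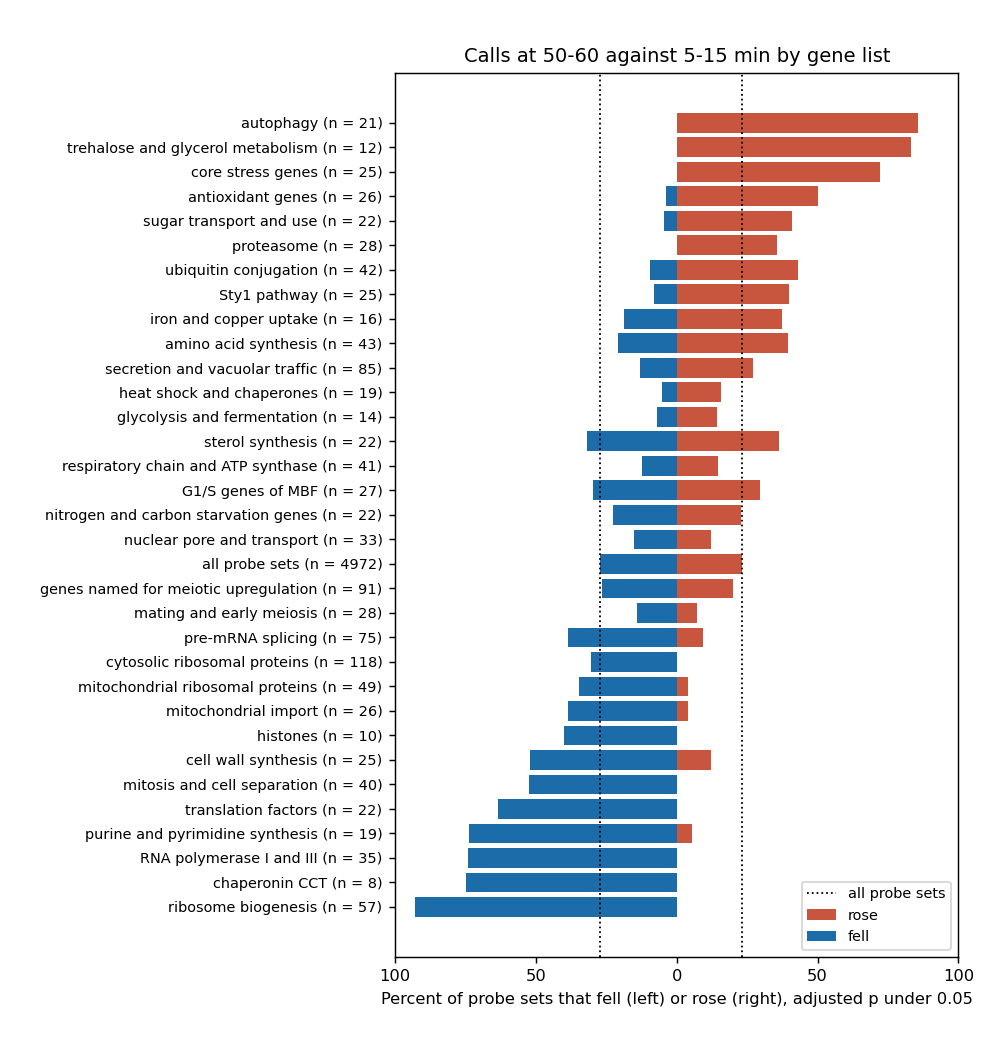
Share of probe sets that rose (right, red) or fell (left, blue) from early to late arrays (adjusted p under 0.05) in each of 32 gene lists and in all 4972 probe sets, with the shares over all probe sets (23.1% and 27.2%) as dotted lines. Autophagy (18 of 21 higher) and ribosome biogenesis (53 of 57 lower) stand at the ends.

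Heat shock and chaperone genes did not share 1 course. In the joint comparison 3 of 19 rose (15.8%, against 23.1% of all probe sets) and 1 fell (5.26%, against 27.2%). With culture means 0 passed. The interaction of phase and culture called 151 probe sets over the array (3.04%) and 7 of these 19: mas5, sti1, hsp90, mdj1, mcp60, pss1 and bip1, of which mas5 and sti1 come from the rule for named genes. Mas5, an Hsp40 partner of Hsp70, had early signals of 9.33, 10.3 and 12.5 in both cultures together. Late signals were 3.65 and 3.92 in culture 1, under all early arrays, and 12.6 and 12.2 in culture 2, at the top of their range. The cultures differed by 1.55 (limma adjusted p = 0.0110). The Hsp90 co-chaperone gene sti1 changed by -0.77 in culture 1 and 0.41 in culture 2 (limma adjusted p of the difference = 0.0110). The other 5 changed by between -0.91 (mcp60) and -0.41 (bip1) in culture 1 and by between 0.06 (mcp60) and 0.70 (mdj1) in culture 2.

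The rule for named genes also took cdt1 and pep7 from the interaction. Of the mitosis and cell separation list 5 of 40 probe sets were called by it, against 3.04% of all probe sets. Cdt1, which licenses replication origins, had early signals of 0.737, 0.977 and 1.16. It changed by -0.24 in culture 1, to 0.696 and 0.894, and by -2.81 in culture 2, to 0.164 and 0.12 (difference -2.57, limma adjusted p = 0.0110). Pep7 changed by 1.30 in culture 1, to 2.37 and 2.36, and by -0.34 in culture 2, to 0.514 and 0.504 (difference -1.64, limma adjusted p = 0.00656). These calls lean on single arrays. Leaving out the 50 or the 60 min array of culture 1 left 26 and 2 of the 151, and leaving out that of culture 2 left 5 and 0. Dropping an early array gave 34 (culture 2, 10 min), 72 and 83 (15 min of either culture) or 357 calls (culture 1, 5 min).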

How the data were processed

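Total RNA was labelled with a 3' in vitro transcription kit and hybridised to single-colour Affymetrix arrays, per the labels' protocols. The values are signal intensities per probe set, on a linear scale from 0.0029 to 64.6, as the authors deposited them in the value table. Background, probe summary and scaling methods are not stated in the labels, which leaves the calibration unknown, as is the signal below which a gene is not detected. The number of arrays limits the precision.

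Signals were log2-transformed with no pseudocount and no filter, since none was 0. limma 3.58.1 in R 4.3.3 fitted the 10 arrays with phase and culture (lmFit, eBayes; 7 residual degrees of freedom and 3.08 from the prior). Changes against 0 min used 12 arrays, the comparison with untreated cultures 14, and the culture difference an interaction. The replicate number in the titles was taken to mark 1 batch culture followed in time, which makes it the block. Stressed and untreated cultures share only a number.

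Symbols came from the platform annotation (2903 probe sets with 1 symbol, 16 with several, 2053 unnamed here) and 2900 matched RefSeq genes (ASM294v3) by gene ID. The time groups, the limits of 0.5 and 1, and the 32 lists were chosen with earlier results of these data known. Some lists share members. The ribosome biogenesis list also took in nuc2 (a subunit of the anaphase-promoting complex), the chaperone list the kinase gene ssp1 and the mitosis list the replication gene mcm2, and none of these was called. Genes were named by rule: the 12 highest and 12 lowest changes of 1 direction in both cultures, the 10 largest late-only risers and fallers, up to 4 per list with the lowest p, 4 with the lowest p of culture difference, and srx1, ctt1 and pyp2. Genes outside it are said to have been named after their values were seen. Alternatives changed the block, the unit of replication, the times, the scaling, a pseudocount of 0.1, a filter on the lowest 25% of probe sets, the class limits and the arrays included.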

Additional observations from a re-analysis of the deposited data

Results flagged for a closer look

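In 8 of 302 groups of early or late arrays of the named genes, 1 array lay far from the others by Dixon's 95% criterion, where chance alone flags about 5% of groups, or 15.1. They were hsp10 on the 5 min array of culture 2 (17.8, low), cct4 (7.08, low) and chs2 (0.539, low) on the 15 min array of culture 1, rpa43 (9.42, high) and prp3 (1.06, high) on its 5 min array, pgi1 (18.1, low) and gal7 (3.37, low) on its 60 min array and hhf1 (10.9, high) on its 50 min array.

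The late step differed between the 2 stressed cultures, by the interaction in limma, for 8 named genes. As culture 2 minus culture 1, the difference was 2.64 for adg1 (adjusted p = 0.0185) and 2.24 for adg2 (0.0151), both lower in both cultures but less so in culture 2. The sterol synthesis genes erg1 and erg11 had differences of 0.92 (0.0315) and 0.90 (0.0261). Those of mas5, sti1, cdt1 and pep7 were 1.55, 1.19, -2.57 and -1.64.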

How the results depend on the processing

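Called probe sets in the late against early comparison numbered 2499. They were 1722 with no replicate block, 1042 with 1 mean per culture and phase, and 446 with all 32 arrays and no replicate block. For 60 against 15 min alone they were 47, and among the 2903 probe sets with 1 symbol, which are fewer to test, 1418. With 1 array or 1 culture left out they were 1236 to 2547. With no replicate block the early calls against 0 min went from 66 to 19, and with a 0 min array left out to 4 to 8. The late calls against 0 min, 2336, were 1346 to 1463 without a 0 min array, and the culture differences, 151, ranged from 0 to 357 without 1 array. With 1 culture left out, the step of pep7 ranged from -0.34 (without culture 1) to 1.30, that of mas5 from -1.40 to 0.15 and that of sti1 from -0.77 to 0.41, each turning direction without culture 1. Late-only risers (46) and fallers (99) were 24 and 45 with an early limit of 0.3, 13 and 30 with every early array within 0.5, and 291 and 439 with a step of 0.5. Added after seeing the data, leaving out both 5 min arrays gave 25 and 42, and a reference of all 4 arrays at 0 min gave 36 and 76. The cause of these shifts was not tested. Late-only counts were 46 and 99 in the fits with and without the block too, but 38 and 75 of these were called in the fit of all 32 arrays, which had no block. Quantile normalization gave 2452 calls late against early, median centring 2482, the pseudocount 2498 and the filter on low signals 2064.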

Other observations

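Some of the lists not described above are given from the early to the late arrays, where 23.1% of all probe sets rose and 27.2% fell. With culture means these shares were 9.45% and 11.5%. In sterol synthesis 8 of 22 probe sets rose and 7 fell: erg32 rose by 1.80 ± 0.32 to late signals between 4 and 12.2, while erg1, squalene epoxidase, fell by 1.23 ± 0.17 (limma adjusted p = 0.00154 and 0.000409). In cell wall synthesis 13 of 25 fell, among them gas1, a glucanosyltransferase (-1.52), and chs2 (-1.32), and 3 rose. Splicing genes fell at 29 of 75 probe sets and rose at 7, with 5 falls left under culture means. Amino acid synthesis had 17 of 43 higher and 9 lower, of which 2 and 5 were called with culture means. Among sugar genes gal10 (1.71) and gal7 (1.21) rose beside inv1, and the hexose transporter gene ght1 fell by 1.06 from an early median of 0.0907. Of 10 histone probe sets 4 fell and 0 rose, none of them called with culture means. Of the G1/S genes of the factor MBF 8 of 27 rose and 8 fell, shares of 29.6% each that lie near those of all probe sets. In the list of mating and early meiosis 2 of 28 rose and 4 fell, among them the M-factor gene mfm2, which fell by 2.04. Mfm2 read 2.55 and 1.76 in the stressed cultures at 0 min and already 0.632 and 0.535 at 15 min. In the untreated cultures it stood higher from the start, at 10.6 and 3.5 at 0 min and at 10.1 and 14.8 at 60 min.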
